A study of Mus musculus with 2 samples.

Results

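The claudin, desmosomal cadherin and connexin genes encode the membrane proteins of 3 kinds of cell junction. They were taken here as every gene of the deposited table whose whole symbol is Cldn, Gja, Gjb, Gjc or Gjd with a number, Dsc with a digit, or Dsg with a digit and an optional letter. This rule, which uses names alone, found 51 of 31053 genes: 23 claudins, 9 desmosomal cadherins and 19 connexins. They were followed across the cells of 1 single-cell RNA library pool of mouse lower incisors, which grow throughout life. The tissue came from untreated C57BL/6 mice of 4 weeks. It is labelled as dental mesenchyme, but the protocol left the dental epithelium on the pulp, and the proximal end of the tooth was cut off before digestion with collagenase. The 2 titles of the series differ only in the lane, and nothing links a barcode to a title, so the data are 1 sample of an unknown number of animals. There is no replicate check on any difference, no test between groups was made, and all intervals are 95% intervals for counting error alone.

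Claudins are four-pass membrane proteins that form the strands of tight junctions, and different claudins make these strands either sealing or permeable to certain ions. Desmocollins (Dsc) and desmogleins (Dsg) are the cadherins of desmosomes, which anchor keratin filaments of neighbouring cells to each other through a plaque of desmoplakin, plakoglobin and plakophilins. Connexins assemble into gap junction channels through which small molecules pass from cell to cell. In the enamel organ, junctions hold the ameloblasts, which secrete enamel matrix, in a sheet and join them to the stratum intermedium beneath. Odontoblasts, the dentine-forming cells of the mesenchyme, also lie in a sheet and are coupled by gap junctions.

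The counts are of unique molecular identifiers (UMIs), each standing for 1 captured RNA molecule. The filters on barcodes (500 or more detected genes, mitochondrial UMIs of 20% or less) left 4775, of which 4539 remained after removal of 122 likely doublets and 114 barcodes with haemoglobin RNA. Clusters were made without the 51 genes and without 57 other junction genes, so that neither set defined a cluster, and classes were named by marker genes. There were 769 epithelial, 74 endothelial, 1360 immune and 101 erythroid cells, 38 cells in an unnamed cluster and 2197 mesenchymal cells. Median depth was 9304 UMIs in epithelial, 4495.5 in endothelial, 2962 in immune and 7007 in mesenchymal cells. Summed counts are given as CPM, the UMIs of a gene per 1000000 UMIs of its class or cluster. The label was borne out for part of the cells only: 8 mesenchymal markers summed to 192 CPM in epithelium against 13088 CPM in mesenchyme, and 10 epithelial markers to 2627 CPM in epithelium against 18.3 CPM in mesenchyme.

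Of the 51 genes, 11 had 0 UMIs in these barcodes, 19 had 1 to 29, 8 had 30 to 99 and 13 had at least 100. Genes without a UMI included Cldn9, Cldn16, Cldn18, Cldn22, Cldn24, Dsg1c, Dsg4, Gjb1, Gjd2 and Gjd3. In the 4539 cells a count of 0 allows a level of up to 0.0865 CPM, taking 3 UMIs as the limit. Together the 51 genes had 18005 UMIs in these cells, of which claudins had 5238, desmosomal cadherins 1812 and connexins 10955. The connexin gene Gja1 alone had 9903. Most of the family was thus below or near detection, and the description turns on 13 genes: Cldn1, Cldn5, Cldn10, Cldn12, Cldn13, Cldn20, Dsc2, Dsc3, Dsg1a, Dsg2, Gja1, Gja4 and Gjc1.

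The classes differed in which of these genes they held. Epithelial cells carried Cldn1, Cldn10, Cldn20 and the desmosomal cadherins. Endothelial cells carried Cldn5 and Gja4, and erythroid cells Cldn13. Gja1 and Gjc1 were shared by epithelium and mesenchyme, and immune cells had little of any of them. At least 90% of the UMIs of 5 genes lay in epithelial cells. Dsg1a had 99.1% of its UMIs there (96.7 to 99.9), Dsc3 98.5%, Cldn20 96.4%, Dsg2 94.5% and Cldn1 90.2%.

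**Figure D1:**
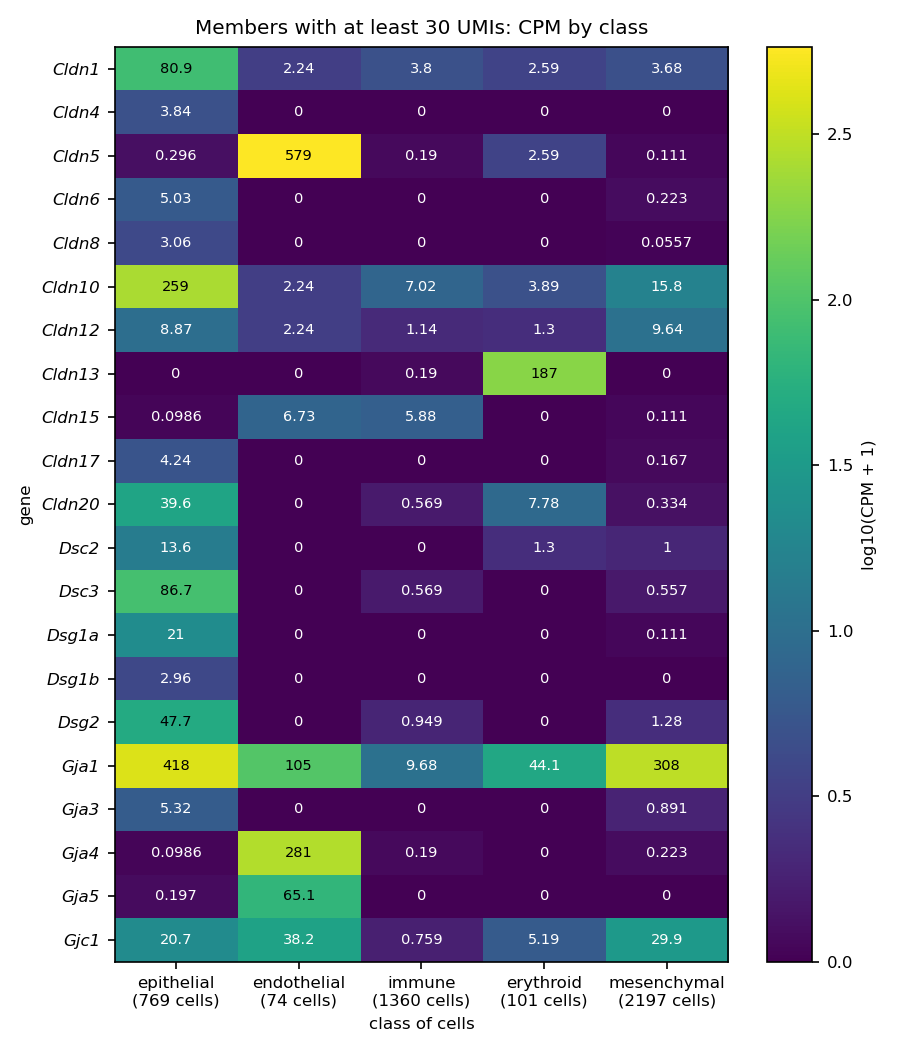
Summed CPM of the 21 genes with at least 30 UMIs in epithelial, endothelial, immune, erythroid and mesenchymal cells. The colour is log10(CPM + 1) and the printed number is the CPM. Gja1 reached 418 CPM in epithelium against 308 CPM in mesenchyme, Cldn5 579 CPM in endothelial cells and Cldn13 187 CPM in erythroid cells.

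The start regions of 4 claudin genes are shown because the results turn on them: Cldn10 and Cldn1 differ among epithelial clusters, Cldn20 is high in a cluster with ameloblast markers, and Cldn5 in endothelium. Each window holds the 250 bases before an annotated transcript start in RefSeq (build GRCm38.p6), written from 5′ to 3′ on the strand of the gene, with every CG dinucleotide in capitals. Cldn10 spans chr14:118787908-118875489 on the plus strand (GENCODE M21, build GRCm38) and has 2 windows 67.1 kb apart, at chr14:118787621-118787870 and chr14:118854700-118854949. The upstream start and the internal one begin transcripts with different first exons. The counts do not separate these transcripts, so every Cldn10 value below is their sum.
Cldn10 upstream start: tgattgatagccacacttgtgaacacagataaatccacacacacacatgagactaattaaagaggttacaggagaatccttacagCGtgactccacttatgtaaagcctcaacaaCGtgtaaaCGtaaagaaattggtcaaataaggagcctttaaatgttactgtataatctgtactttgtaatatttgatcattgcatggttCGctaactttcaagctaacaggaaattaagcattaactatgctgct
Cldn10 internal start: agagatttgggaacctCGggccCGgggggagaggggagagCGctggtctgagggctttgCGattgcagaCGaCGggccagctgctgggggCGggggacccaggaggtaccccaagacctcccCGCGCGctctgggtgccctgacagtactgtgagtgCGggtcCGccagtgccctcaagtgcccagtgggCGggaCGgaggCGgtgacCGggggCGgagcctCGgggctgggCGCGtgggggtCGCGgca
Cldn1 (window chr16:26371840-26372089, minus strand): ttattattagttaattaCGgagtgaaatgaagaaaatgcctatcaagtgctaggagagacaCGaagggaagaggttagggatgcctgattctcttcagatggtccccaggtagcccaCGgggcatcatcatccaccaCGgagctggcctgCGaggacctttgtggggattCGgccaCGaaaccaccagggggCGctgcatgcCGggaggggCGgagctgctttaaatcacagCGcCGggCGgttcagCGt
Cldn20 (window chr17:3532304-3532553, plus strand): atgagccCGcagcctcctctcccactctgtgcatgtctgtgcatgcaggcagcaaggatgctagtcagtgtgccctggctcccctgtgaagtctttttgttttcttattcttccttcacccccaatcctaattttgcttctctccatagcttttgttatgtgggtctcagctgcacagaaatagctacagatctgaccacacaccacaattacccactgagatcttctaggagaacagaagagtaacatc
Cldn5 (window chr16:18776597-18776846, plus strand): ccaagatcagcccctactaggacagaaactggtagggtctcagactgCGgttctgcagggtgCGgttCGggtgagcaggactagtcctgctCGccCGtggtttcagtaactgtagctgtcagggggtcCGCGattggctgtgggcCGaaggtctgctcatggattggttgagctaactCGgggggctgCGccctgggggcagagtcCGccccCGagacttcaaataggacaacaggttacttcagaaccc
The windows differed widely in CG content. The upstream Cldn10 window held 4 CG dinucleotides at a G+C content of 36%, and the internal one held 22 at 72.4%. The Cldn1 window held 14, that of Cldn5 12 and that of Cldn20 only 1. The median of all 32851 windows of the table was 6, and 92.1% held at least 1. Windows were found for 31 of the 51 genes.

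The first comparison set epithelial against mesenchymal cells and asked which junction genes mark the layer that the tissue label does not name. Of 16 genes with at least 30 UMIs over both sides, 13 were at least 2-fold higher and 0 were lower in epithelial cells. Over all 12919 genes measured in the same way, 10.6% were higher and 20% lower. The median log2 ratio of the 16 genes was 4.48, and that of all measured genes −0.29. The 5 genes above 1% of the UMIs of either side, among them the enamel genes Amelx and Ambn, held 22.1% of epithelial and 4.34% of mesenchymal UMIs. With such genes left out of both totals (reduced totals below), the median over all genes was 0.01 and the count stayed at 13 higher and 0 lower. The families differed: 7 of 8 claudins and 5 of 5 desmosomal cadherins were higher, but only 1 of 3 connexins. Of the 13 higher genes, only Cldn1 (66 UMIs) and Cldn10 (284 UMIs) had at least 30 UMIs in mesenchymal cells. The rest passed the filter only through their epithelial UMIs, so these counts and the median follow in part from the filter. The higher genes of the endothelial, immune and erythroid comparisons below passed it in the same way.

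Among the claudins, Cldn1, which is needed for the water barrier of mouse skin, had 80.9 CPM in epithelial cells (75.5 to 86.7) and 3.68 CPM in mesenchymal cells (2.84 to 4.68). This is a log2 ratio of 4.46 (4.10 to 4.84). Cldn10, whose isoforms form pores for either anions or cations, had 259 CPM in epithelium against 15.8 CPM in mesenchyme, a log2 ratio of 4.03 (3.85 to 4.21). Cldn20 had 402 UMIs in epithelial and 6 in mesenchymal cells, or 39.6 CPM in epithelium against 0.334 CPM in mesenchyme (log2 6.89, 5.76 to 8.34). Its locus at chr17:3532554-3533213 is short, and little is established about its function. Cldn12 did not share this pattern, with 8.87 CPM in epithelium against 9.64 CPM in mesenchyme (log2 −0.12, −0.50 to 0.26). The other 4 claudins that were higher had few UMIs: Cldn4 39 against 0, Cldn6 51 against 4, Cldn8 31 against 1 and Cldn17 43 against 3 in epithelial and mesenchymal cells. For Cldn4, with 0 mesenchymal UMIs, the level in epithelial cells was at least 23.0-fold higher, by a limit of 3 UMIs over the class.

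Of the genes with at least 100 UMIs, the desmosomal cadherins Dsg1a and Dsc3 had the largest ratios, and Dsg2 and Dsc2 had lower ones than Cldn20. Dsc3, a desmocollin of stratified epithelia, had 880 UMIs in epithelial and 10 in mesenchymal cells, or 86.7 CPM in epithelium against 0.557 CPM in mesenchyme (log2 7.28, 6.40 to 8.35). Dsg1a had 213 UMIs in epithelial and 2 in mesenchymal cells (log2 7.56, 5.69 to 10.61). Dsg2, a desmoglein of simple as well as stratified epithelia, had 47.7 CPM in epithelium against 1.28 CPM in mesenchyme (log2 5.22, 4.62 to 5.89), and Dsc2 had 13.6 CPM in epithelium against 1.00 CPM in mesenchyme (log2 3.76, 3.05 to 4.56). All 4 thus had at least 87.9% of their UMIs in epithelial cells. Mouse Dsg1a and Dsg1b (30 UMIs, all epithelial) are near-identical copies, so the division of reads between them is uncertain. Exons of Dsg2 overlap those of the antisense gene Gm16090, and whether the counting used strand is not given in the sources used here.

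Connexins did not separate the layers in the same way. Gja1, the most widely expressed connexin gene of mammals, had 418 CPM in epithelial cells (405 to 430.3) and 308 CPM in mesenchymal cells (300.2 to 316), a log2 ratio of 0.44 (0.38 to 0.50). Gjc1 had 20.7 CPM in epithelium against 29.9 CPM in mesenchyme (log2 −0.53, −0.77 to −0.30). Both ratios are within 2-fold. Gja3, a connexin gene known from the lens, was the only measured connexin that was higher, with 54 UMIs in epithelial and 16 in mesenchymal cells (log2 2.58, 1.75 to 3.48).

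**Figure D2:**
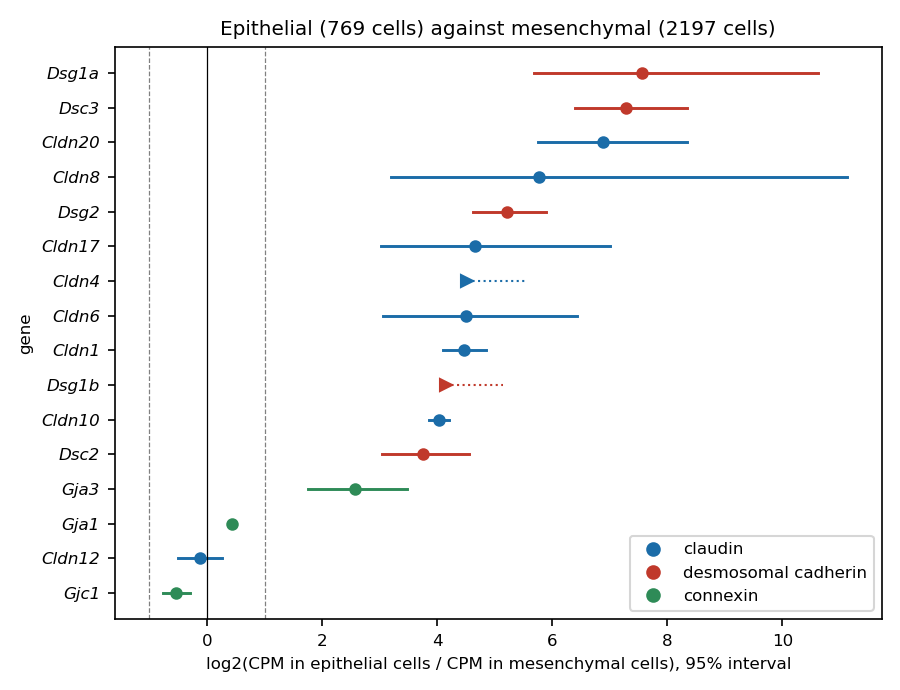
Log2 ratio of CPM in epithelial over mesenchymal cells with its 95% interval, for the 16 genes with at least 30 UMIs over both sides. Triangles with a dotted tail are lower bounds for genes with 0 mesenchymal UMIs (Cldn4 and Dsg1b), and dashed lines mark a 2-fold difference. Of the 16 genes, 13 lie right of the upper dashed line, and Gja1, Cldn12 and Gjc1 lie between the lines.

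Other junction genes, from 6 lists chosen with results of these data known, showed which partners went with these membrane proteins. Of desmosomal plaque genes, 5 of 6 were higher and 1 lower in epithelial cells. All counts of these lists in this comparison stand beside the 10.6% higher and 20% lower of all genes. Pkp3, a plakophilin, had a log2 ratio of 6.96 (5.83 to 8.41), and Dsp, which encodes desmoplakin, had 74.7 CPM in epithelium against 0.891 CPM in mesenchyme (log2 6.39). Pkp4 was the exception with −1.55. Of tight junction scaffold and membrane genes, 9 of 17 were higher and 4 lower, and 2 of the 4, Magi1 and Magi3, were within 2-fold with the reduced totals. Ildr2 (log2 6.46, 5.96 to 7.01) and F11r, a junctional adhesion molecule (log2 6.26), were epithelial, whereas its relative Jam3 was mesenchymal (log2 −5.51, −6.73 to −4.52).

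Classical cadherins were split, with 3 of 8 higher and 1 lower. Cdh1, E-cadherin, had 173 CPM in epithelium against 6.57 CPM in mesenchyme (log2 4.72), and Cdh3 had a log2 ratio of 3.48, while Cdh11, a cadherin of mesenchymal cells, had 32.0 CPM in epithelium against 357 CPM in mesenchyme (log2 −3.48). Hemidesmosome genes, which tie epithelia to the basement membrane, were higher in 5 of 6 cases, led by Col17a1 (log2 8.08, 7.38 to 8.89) and Itgb4 (log2 7.32). This list was not particular to epithelium: 5 of 5 measured were also higher in endothelial than in mesenchymal cells, beside 18.0% of all genes. The median log2 ratios were 3.34 in epithelial and 3.24 in endothelial cells. Of the pannexins, channel proteins unrelated in sequence to connexins, Panx3 was mesenchymal with 3.15 CPM in epithelium against 74.4 CPM in mesenchyme (log2 −4.56, −5.11 to −4.05), and Panx1 was higher in epithelium (log2 1.54). Of the regulators of epithelial and mesenchymal state, 5 of 9 were higher and 3 lower. Esrp1, an epithelial splicing factor, had a log2 ratio of 7.36, and Zeb2 and Zeb1, repressors of epithelial genes, had −6.09 and −5.90.

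The second question was how the genes are divided within the epithelium. Clustering the 769 epithelial cells again gave 6 clusters, each called by its leading gene. The Slc13a5 cluster (264 cells) was high in the 8 ameloblast markers, which summed to 404341 CPM. Those markers came to 116043 CPM in the Dspp cluster (140 cells) and 293798 CPM in the Atf3 cluster (39 cells, led by immediate early genes such as Fos and Jun). The Grp cluster (192 cells) held the markers of proliferative dental epithelium (1091 CPM) and of cycling cells (1327 CPM). The Enpp2 cluster (90 cells) held the markers of stratum intermedium or other non-ameloblast epithelium (3828 CPM, against 108 to 614 CPM in the other 5). The Vwde cluster had 44 cells and a median of 4691.5 UMIs, the lowest of the 6.

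Claudins divided these clusters into opposite groups. Cldn10 was high in the Enpp2 cluster with 1041 CPM (974 to 1111) and in the Grp cluster with 683 CPM (651 to 717). It reached 54.5 CPM in the Vwde, 8.43 in the Atf3 and 3.29 in the Dspp cluster. In the Slc13a5 cluster only 4 UMIs were found in 264 cells, or 1.05 CPM, against 413 CPM in the other epithelial cells (log2 −8.62, −10.49 to −7.26). Cldn20 ran the other way, with 83.1 CPM in the Slc13a5 (74.2 to 92.8) and 69.1 CPM in the Atf3 cluster (49.6 to 93.8), whose intervals overlap. The Atf3 value depended on the clustering. At resolution 1.0 in place of 0.5 the best-matching part held only 15 of the 39 cells. It had 3 UMIs of Cldn20, or 13.3 CPM (2.75 to 39.0). Its log2 ratio to the other epithelial cells was −1.59, against 0.87 for the 39 cells. Most of the rest of the 39 cells went to a part led by Fosb and Atf3 (55 cells, 31 of them from the Slc13a5 cluster). That part had 97.0 CPM of Cldn20 (77.1 to 120.4). Elsewhere at the main resolution Cldn20 had 18.3 CPM in the Dspp cluster, 5.83 in the Enpp2 cluster, 1 UMI in the Grp cluster and 0 in the Vwde cluster. Cldn1 belonged to both groups: it was highest in the Enpp2 cluster with 229.9 CPM (199 to 264), next in the Slc13a5 cluster with 142 CPM (130.3 to 155), and had 43.8 CPM in the Atf3, 12.7 in the Dspp and 12.4 in the Grp cluster and 0 UMIs in the Vwde cluster. The 15 cells that match the Atf3 cluster at resolution 1.0 had 0 UMIs of Cldn1. The Fosb part, with most of the other Atf3 cells, had 97.0 CPM of it.

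Counts of single cells, which come from the same UMIs, describe these clusters cell by cell. Whether 2 genes avoid each other within a cluster was not tested. In the Slc13a5 cluster 124 of 264 cells had UMIs of both Cldn1 and Cldn20, 65 of Cldn1 alone and 31 of Cldn20 alone, while 4 cells had both Cldn1 and Cldn10 and 0 had Cldn10 without Cldn1. In the Enpp2 cluster 39 of 90 cells had both Cldn1 and Cldn10, 35 had Cldn10 alone and 4 had Cldn1 alone. In the Grp cluster 93 of 192 cells had Cldn10 alone, 19 had both and 2 had Cldn1 alone. A cell with 0 UMIs of a gene may still express it, since depth limits these counts.

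Of the desmosomal cadherins, Dsc3 and Dsc2 followed the Enpp2 and Grp clusters, while Dsg1a and Dsg2 had other patterns. Dsc3 had 479.5 CPM in the Enpp2 cluster (434 to 528) and 177 CPM in the Grp cluster (161 to 194), and 2.37 to 25.4 CPM in the other 4. Both Cldn10 and Dsc3 were found in 58 of 90 Enpp2 cells and in 74 of 192 Grp cells. Dsc2 had the same order, with 70.0 CPM in the Enpp2 and 25.7 CPM in the Grp cluster and at most 3.63 CPM elsewhere. Its ratio in the Grp cluster was 1.41, or 0.97 with the reduced totals. Dsg1a was more restricted: it had 141 CPM in the Enpp2 cluster (117 to 169) and 2.10 to 36.3 CPM in the other 5, with 13.3 CPM in the Grp cluster. Dsg2, in contrast, was present in all 6 clusters, with 76.3 CPM in the Vwde, 75.5 in the Grp, 61.8 in the Enpp2, 42.8 in the Dspp, 30.8 in the Slc13a5 and 23.6 in the Atf3 cluster. The intervals of its 3 highest clusters overlap. The Slc13a5 cluster thus kept Dsg2 while holding 9 UMIs of Dsc3, 7 of Dsc2 and 8 of Dsg1a.

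Gja1 was detected in every cluster. It had 912 CPM in the Enpp2 cluster (849.6 to 979), 538 in the Vwde, 447 in the Dspp, 393 in the Atf3, 371 in the Slc13a5 and 286 in the Grp cluster. The Enpp2 cluster stood apart from the other epithelial cells (372 CPM) by a log2 ratio of 1.29 (1.18 to 1.41), which was 0.99, just within 2-fold, with the reduced totals. At resolution 1.0 its larger matching part (69 cells) had a ratio of 0.60, within 2-fold. In the Slc13a5 cluster the ratio of Gja1 was within 2-fold and its sign turned with the totals (−0.27, and 0.42 with the reduced totals). Gjc1 was highest in the Grp cluster with 38.5 CPM (31.2 to 47.1) and had 8.17 to 25.3 CPM in the other 5. Its ratio in the Grp cluster was 1.37 (0.96 to 1.78), or 0.93 with the reduced totals. Gja3 was the connexin of the Dspp cluster, where 33 of its 54 epithelial UMIs lay (log2 2.57, 1.73 to 3.43).

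**Figure D3:**
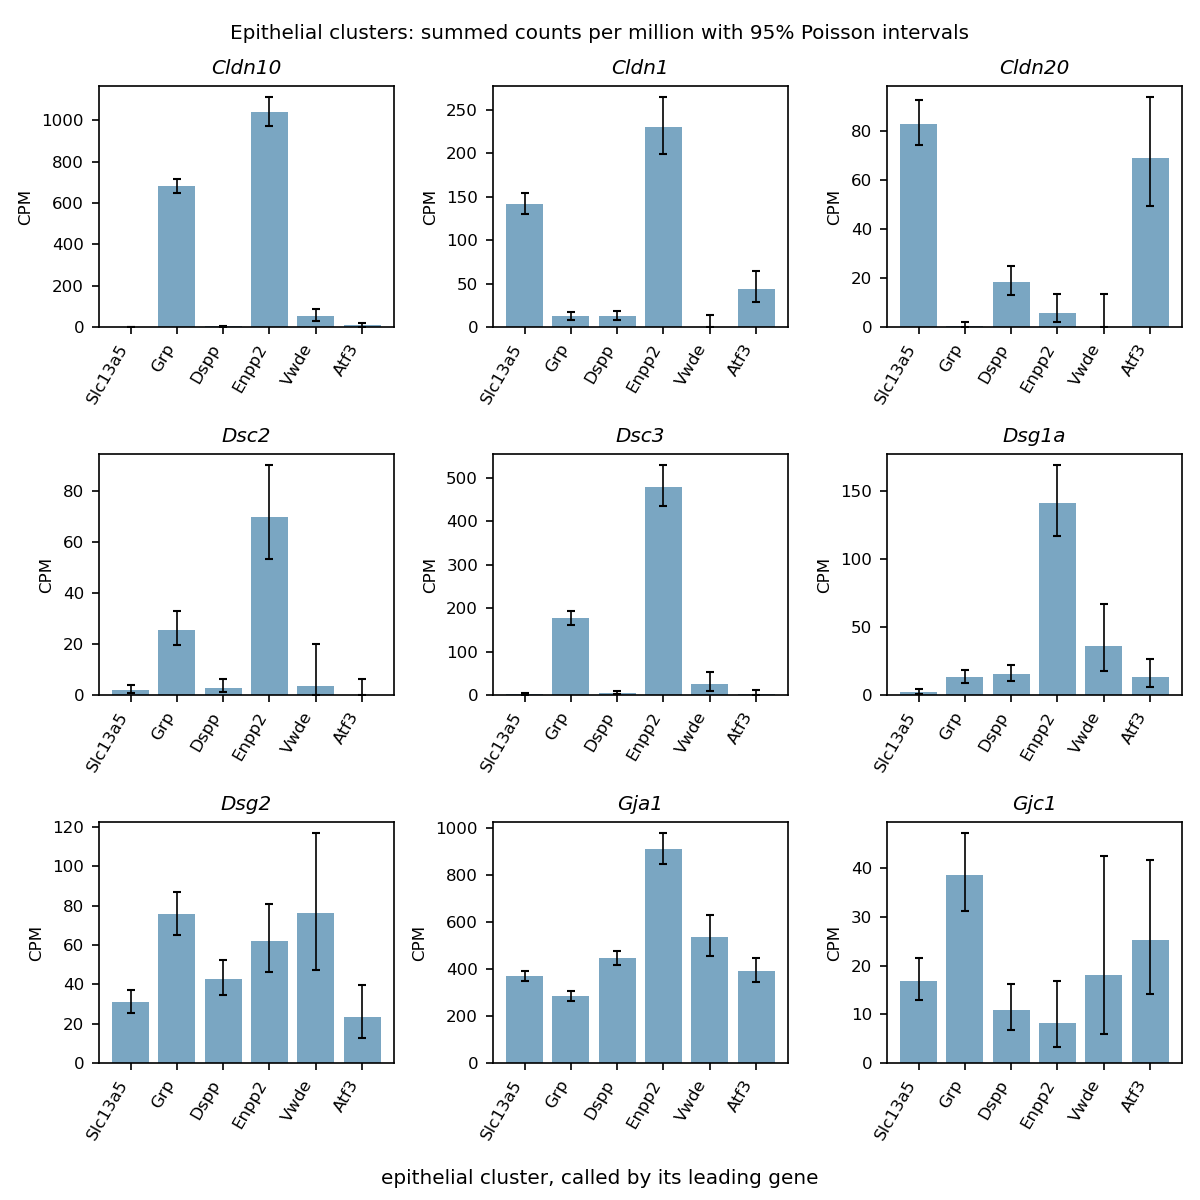
CPM of 9 genes in the 6 epithelial clusters, with exact Poisson intervals (95%). Each panel has its own scale from 0, and clusters are named by their leading gene. Cldn10, Dsc2 and Dsc3 are high in the Grp and Enpp2 clusters, and Cldn1 in the Slc13a5 and Enpp2 clusters. Cldn20 is high in the Slc13a5 cluster and, at this resolution, the Atf3 cluster. At resolution 1.0 the best match of the Atf3 cluster, 15 of its 39 cells, had 13.3 CPM of Cldn20. The part with most of its other cells had 97.0 CPM. Gja1 is present in all 6 clusters.

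Counts over the 16 measured genes sum up these patterns. In the Enpp2 cluster 10 were higher and 2 lower than in the other epithelial cells, beside 18.4% and 8.53% of 10565 genes. Of the 10, Cldn4, Cldn17 and Dsg1b (27, 26 and 24 UMIs there) passed the filter of 30 UMIs only through this cluster. The same holds for Gja3, higher in the Dspp cluster, and for Cldn6 and Cldn8, higher in the Grp cluster. The counts of higher genes thus follow in part from the filter. In the Slc13a5 cluster 2 were higher, Cldn1 and Cldn20, and 10 lower, beside 3.11% and 40.1%. The Cldn1 ratio of 1.68 was 0.57, within 2-fold, at resolution 1.0, where the matching part is 1 of several from this cluster. In the Dspp cluster 1 was higher and 10 lower (5.87% and 18.2%), and in the Atf3 cluster 0 higher and 5 lower (3.26% and 16.0%). The Vwde cluster had 2 higher and 5 lower (8.32% and 10.4%). In these small clusters the 0 UMIs of 3 genes in the Atf3 and of 2 in the Vwde cluster gave a bound too weak for a call, and the reduced totals gave 1 higher and 4 lower in the Atf3 and 1 higher and 5 lower in the Vwde cluster. In the Grp cluster 6 were higher and 4 lower (29.6% and 8.97%), which became 4 and 6 with the reduced totals. Enamel genes and the other genes above 1% held 44.7% of the UMIs of the Slc13a5 cluster and 10.9% of those of the other epithelial cells, which lowers the CPM of every other gene of this cluster. Its median over all genes was −0.79, and −0.10 with the reduced totals, with which 2 genes were higher and 9 lower.

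Partner genes of the desmosome were high in the same cluster as the cadherins. In the Enpp2 cluster 4 of 6 plaque genes were higher and 0 lower, beside 18.4% and 8.53% of all genes, led by Pkp1 (172 CPM against 20.9 CPM in the other epithelial cells, log2 3.04) and Dsp (333 against 50.9 CPM, log2 2.71). In the Slc13a5 cluster 0 of 6 were higher and 4 lower, beside 3.11% and 40.1% of all genes, or 3 lower with the reduced totals, with Pkp4 at −4.34 and Dsp at −3.81. Tight junction genes outside the claudins were higher in 7 of 15 cases in the Enpp2 cluster and lower in 1, with Ocln, occludin, at 52.5 CPM against 2.69 CPM (log2 4.29, 3.55 to 5.05) and Marveld2 at 3.16. In the Slc13a5 cluster 0 of 15 were higher and 9 lower, or 1 and 7 with the reduced totals, and Ocln had 1 UMI there. Classical cadherins differed too. Cdh2, N-cadherin, was the one classical cadherin or catenin higher in the Slc13a5 cluster on the full totals (149 against 60.4 CPM, log2 1.30), where Cdh1 was lower (36.6 against 255 CPM, log2 −2.80).

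At a finer resolution (1.0 in place of 0.5) the Grp cluster split into a part led by Grp and Sfrp5 (73 cells) with 1389 CPM of Cldn10 and a part led by the cell cycle gene Ube2c (118 cells) with 308 CPM. The Ube2c part is the larger match of the Grp cluster. Its log2 ratios to all other epithelial cells, the Sfrp5 part among them, were within 2-fold. They were 0.31 for Cldn10 and 0.94 for Dsc3, against 2.50 and 1.62 for the whole Grp cluster. The Enpp2 cluster split into a part led by Enpp2 and Alpl (21 cells) and one led by Tnc and Igfbp5 (69 cells). The Alpl part had 1628 CPM of Cldn10, 246 CPM of Dsg1a and 1644 CPM of Gja1, and the Tnc part had 801, 98.5 and 614 CPM of the same genes. Cldn1 differed less, with 201 CPM in the Alpl part (149.5 to 266) and 241 CPM in the Tnc part (204 to 284). Dsg2 ran the other way, with 24.2 CPM in the Alpl part (8.87 to 52.6) and 77.2 CPM in the Tnc part (56.7 to 102.6).

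The third question was whether mesenchymal clusters differ in these genes. Clustering the 2197 mesenchymal cells gave 9 clusters, and 5 of the 51 genes were measured: Cldn1, Cldn10, Cldn12, Gja1 and Gjc1. Gja1 was detected in all 9. It was highest in the Slc20a2 cluster (109 cells) with 809.8 CPM (749 to 875), followed by the Igf1 cluster (384 cells) with 572 CPM (544 to 602) and the small Dspp cluster (23 cells, high in odontoblast markers) with 394 CPM (324 to 474). The other 6 had 137 to 290.0 CPM, with the Lypd1 cluster lowest (121 to 155). Against the other mesenchymal cells the log2 ratio of Gja1 was 1.51 (1.39 to 1.63) in the Slc20a2 cluster and 1.13 (1.05 to 1.22) in the Igf1 cluster.

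Cldn10 was concentrated in the Slc20a2 cluster, which is led by the phosphate transporter gene Slc20a2 with Stbd1, Vim and Hey1. It had 121 of the 284 mesenchymal UMIs, or 151 CPM (125 to 181), against 9.50 CPM in the other mesenchymal cells (log2 3.99, 3.64 to 4.34). All 40 cells of this cluster with a Cldn10 UMI also had Gja1, as did 63 of its 69 other cells. The 10 epithelial markers summed to 24.99 CPM in this cluster, with Krt15 and Trp63 at 0, against 9.12 to 30.0 CPM over the 9 mesenchymal clusters, and the ameloblast markers to 965 CPM against 920 CPM in all mesenchymal cells. Of 3 measured desmosomal plaque genes, 1 was higher there and 0 lower. Of 12 tight junction genes, 2 were higher and 1 lower, beside 4.86% and 12.7% of all genes. The median log2 ratios of the 2 lists were −0.20 and 0.12. Among the higher genes were Perp (67.5 against 18.4 CPM, log2 1.88) and Ildr2 (16 UMIs against 16, log2 4.42). The Dspp cluster had 45.7 CPM of Cldn10 from 13 UMIs (log2 1.58, 0.65 to 2.37), and the other 7 had 0 to 21.3 CPM.

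Cldn1 lay in a different cluster. The Igf1 cluster, which holds dental follicle markers (4036 CPM), had 61 of the 66 mesenchymal UMIs, or 22.4 CPM (17.1 to 28.8) against 0.328 CPM in the other mesenchymal cells (log2 6.09, 4.79 to 7.76). Epithelial markers summed to 14.7 CPM there. Of 7 measured classical cadherins and catenins, 3 were higher and 2 lower in the same cluster, beside 15.3% and 9.96% of all genes. The largest ratios were of 2 cadherins usually assigned to epithelia: Cdh3 had 37.4 against 0.788 CPM (log2 5.57), and Cdh1 had 32.7 against 1.90 CPM (log2 4.10). The other lists did not share this: 1 of 3 desmosomal plaque genes was higher and 2 lower, and 1 of 12 tight junction genes was higher and 4 lower. At the finer resolution the cluster split into a part led by Igfbp3 and Sfrp2 (230 cells) with 29.4 CPM of Cldn1 and 235 CPM of Gja1, and a part led by Adgrg6 and Bmp3 (154 cells) with 12.4 CPM of Cldn1 and 1050.0 CPM of Gja1. The high Gja1 of the cluster thus came from the Adgrg6 part.

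**Figure D4:**
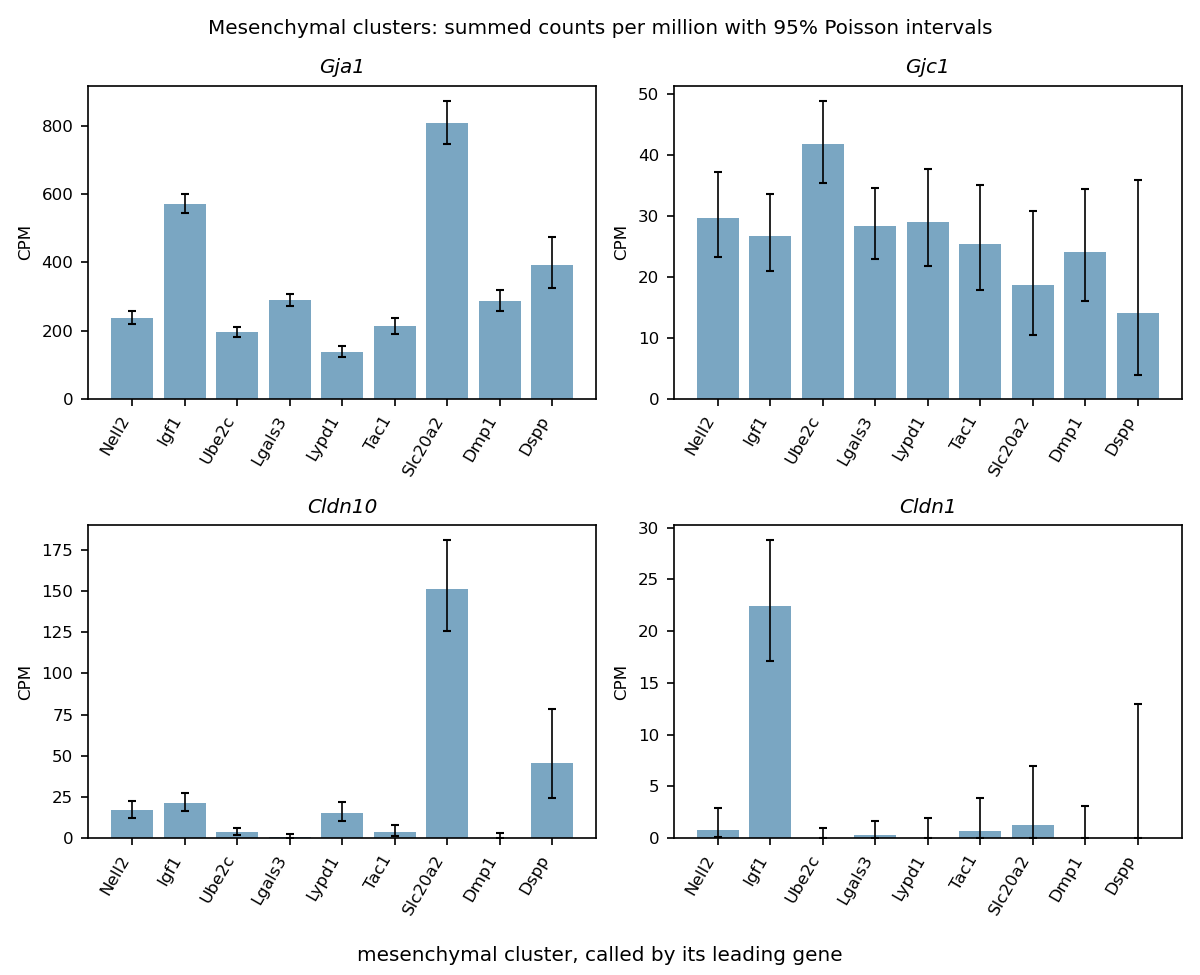
CPM of Gja1, Gjc1, Cldn10 and Cldn1 in the 9 mesenchymal clusters, with exact Poisson intervals (95%) and a separate scale from 0 in each panel. Gja1 is highest in the Slc20a2 cluster with 809.8 CPM and in the Igf1 cluster, Cldn10 in the Slc20a2 cluster, and Cldn1 in the Igf1 cluster, while most intervals of Gjc1 overlap.

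Of the 5 measured genes, 2 were higher and 1 lower in the Igf1 cluster, beside 15.3% and 9.96% of 12054 genes, and 2 higher and 1 lower in the Slc20a2 cluster, beside 4.86% and 12.7%. The Dspp cluster had 1 higher and 1 lower (9.86% and 18.4%). In the other 6 clusters 0 were higher. The background was 3.62% higher and 10.8% lower in the Nell2 cluster, where 1 of the 5 was lower. It was 5.77% and 11.9% in the Ube2c cluster, 2.75% and 16.3% in the Lgals3 cluster and 2.39% and 11% in the Lypd1 cluster, each with 2 lower. It was 2.18% and 12.8% in the Tac1 cluster and 8.71% and 22.0% in the Dmp1 cluster, again with 2 lower each. Most of these lower calls were of Cldn1 and Cldn10, which the Igf1 and Slc20a2 clusters held. Cldn1 was among the 5 measured genes only through its UMIs in the Igf1 cluster. Its higher call there and its lower calls elsewhere thus follow in part from the filter. Gjc1 was the most even: it had 14.1 to 41.8 CPM, was highest in the cycling Ube2c cluster (35.4 to 48.9) and at least 2-fold lower only in the Dspp cluster, from 4 UMIs (log2 −1.10, −2.98 to 0.26, and −0.82 with the reduced totals). Cldn12 had 3.32 to 16.2 CPM.

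Endothelial and blood cells held the remaining genes, and each was again set against the same mesenchymal cells, which these comparisons share. In endothelial cells 2 of 7 measured genes were higher and 3 lower, beside 18.0% and 17.0% of 12268 genes. Cldn5, the main claudin of blood vessels (chr16:18776847-18778262), had 258 UMIs in endothelial and 2 in mesenchymal cells, or 579 CPM (511 to 654) against 0.111 CPM (log2 12.34, 10.48 to 15.40). It was seen in 50 of 74 endothelial cells, whose 8 endothelial markers summed to 8541 CPM against 26.6 CPM in mesenchymal cells. Gja4, a connexin gene of arterial endothelium, had 125 UMIs in endothelial and 4 in mesenchymal cells, or 281 CPM against 0.223 CPM (log2 10.30, 8.91 to 12.20). The 125 UMIs came from only 15 of the 74 cells. Gja5, another connexin of arteries, had 29 of its 31 UMIs in 6 endothelial cells, and all 6 also had Gja4. Its exons overlap those of Gpr89 on the opposite strand.

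Gja1 was lower in endothelial cells, with 105 CPM (77.5 to 140.3) against 308 CPM in mesenchymal cells (log2 −1.55, −1.99 to −1.13). Cldn10 and Cldn12, the other 2 lower genes, had 1 UMI each there, with log2 ratios of −2.82 (−8.13 to −0.33) and −2.10 (−7.41 to 0.40). Mesenchymal markers summed to 3028 CPM in endothelial cells, and near-empty droplets of 1 to 20 UMIs had 104 CPM of Gja1, and their part in this value was not tested. No UMI of a desmosomal cadherin with 100 UMIs or more was found in endothelial cells, which allows up to 6.73 CPM of each.

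Immune cells had 1 of 6 measured genes higher and 4 lower than mesenchymal cells, beside 18.6% and 32.8% of 13141 genes. Gja1 had 9.68 CPM in immune cells (7.21 to 12.7), against 308 CPM in mesenchymal cells (log2 −4.99), and Gjc1 had 4 UMIs (log2 −5.30). The higher gene was Cldn15, which forms cation pores in intestine, with 31 UMIs in immune and 2 in mesenchymal cells (log2 5.72, 3.75 to 8.83). It was no longer called with at least 1000 genes per barcode or with 100 UMIs required. Of the 31, 24 lay in 1 cluster of 55 cells that is led by Camp and carries neutrophil markers, at 60.4 CPM (38.7 to 89.8) in 17 cells. The same cluster had 12 of the 20 immune UMIs of Cldn1 in 7 cells (30.2 CPM, 15.6 to 52.7). The 10 epithelial markers had 1 UMI in it.

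Cldn13, a claudin gene of rodents, belonged to erythroid cells. It had 144 UMIs in erythroid cells, 0 in epithelial, endothelial and mesenchymal cells and 1 in immune cells. The level in erythroid cells was at least 1117-fold higher than in mesenchymal cells, by the limit of 3 UMIs. All but 1 of the 144 UMIs lay in 1 of the 2 erythroid clusters (56 cells, 47 of them with a UMI, 345 CPM), and 1 in the other, which is led by Alas2 (45 cells, 2.80 CPM). In erythroid cells 1 of 6 measured genes was higher and 4 were lower than in mesenchymal cells, beside 4.98% and 58.4% of 12158 genes. Erythroid genes take much of the total there, and the median over all genes was −1.24, or −0.25 with the reduced totals.

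Shares of cells with a UMI depend on depth, so each cell was thinned to 2000 UMIs, which left 711 epithelial, 66 endothelial, 922 immune, 88 erythroid and 2032 mesenchymal cells. B cells, which should lack these junction genes, gave the background in the 68 of 206 cells with at least 2000 UMIs. The median depth of all 206 before thinning was 1694 UMIs. Gja1 was found in 52.6% of epithelial (48.9 to 56.3), 16.7% of endothelial, 1.41% of immune, 5.68% of erythroid and 40.9% of mesenchymal cells (38.7 to 43.1), and in 0 of 68 B cells, which allows up to 4.41%. Before thinning the shares were 82.2% of epithelial and 71.6% of mesenchymal cells. Cldn10 was found in 19.97% of epithelial and 2.61% of mesenchymal cells, and in 2.94% of B cells (2 cells). The share over all mesenchymal cells thus cannot be told apart from that of B cells, which rests on 2 of 68 cells. In the Slc20a2 cluster it was 17.0%. Cldn10 also had 42.3 CPM in near-empty droplets, above the 15.8 CPM of mesenchymal cells and below the 151 CPM of that cluster. Other shares above 5% in epithelial cells were 14.1% for Cldn1, 12.4% for Dsc3, 8.72% for Dsg2 and 6.61% for Cldn20, with 0 of 68 B cells for each. Cldn5 was found in 45.5% of endothelial cells and Gja4 in 16.7%, against at most 0.0492% of mesenchymal cells. Cldn13 was found in 38.6% of erythroid cells.

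**Figure D5:**
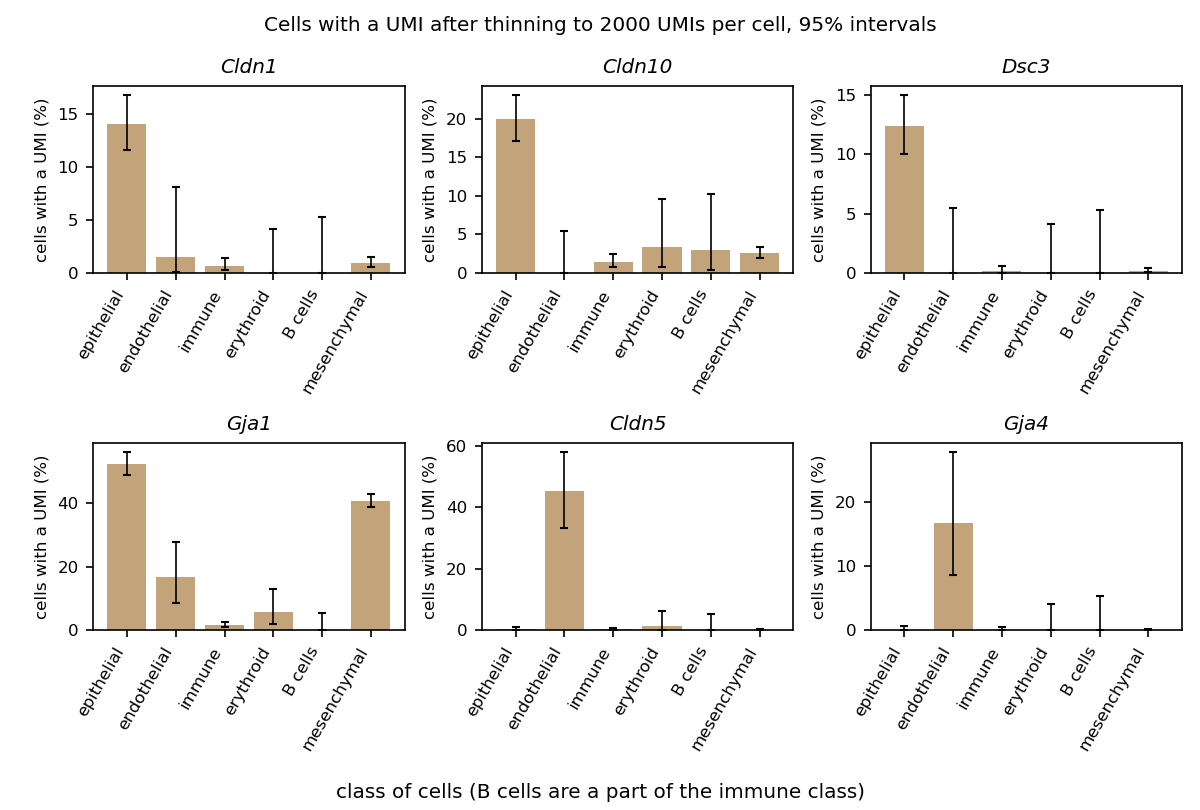
Share of cells with a UMI of 6 genes after thinning to 2000 UMIs per cell, in percent with exact Clopper-Pearson intervals (95%), for epithelial, endothelial, immune, erythroid, B and mesenchymal cells. B cells are part of the immune class and have the widest intervals together with endothelial and erythroid cells. Gja1 is found in 52.6% of epithelial and 40.9% of mesenchymal cells, while Cldn5 and Gja4 are found almost only in endothelial cells.

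The 19 genes with 1 to 29 UMIs are given by count. Cldn7 had 16 UMIs, of which 12 lay in epithelial and 3 in mesenchymal cells. Cldn11 had 15, with 3 in epithelial and 9 in mesenchymal cells. Cldn14 had 13, with 11 in epithelial and 2 in mesenchymal cells, and all 11 UMIs of Cldn3 were epithelial. Of the 19 genes, 14 had 1 to 8 UMIs each. Among them, Gjb2 had 8 UMIs, Gjb5 and Dsg3 had 4 each, and Gjb6 had 2. These low counts are no evidence that a gene is absent, since a thinly expressed RNA is often missed at this depth.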

How the data were processed

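Single-cell RNA of mouse lower incisors was measured in 1 pool that the labels list as 2 lanes. The authors deposited unfiltered UMI counts, written by an unnamed program of version 3.0.2, per the file headers. Gene symbols were deposited as a second file (31053 rows). Build mm10, Seurat and R 3.4.1 are given in the submitters' processing notes, while no aligner or gene annotation is given in the sources used here. The matrix had 6794880 barcodes and 68931830 UMIs, and 34669752 UMIs lay in the 4539 cells used. A row without a gene name was not present.

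The members and all lists were chosen with earlier results of these data known. Barcodes needed 500 genes and at most 20% mitochondrial UMIs (5336 had 500 genes, 561 were removed). Doublets had a Scrublet score above 0.15 (scanpy 1.11.5, the automatic threshold called 1 barcode), and barcodes outside erythroid clusters with over 5% haemoglobin UMIs were removed. Cells were scaled to 10000 UMIs, and 2000 variable genes, 30 components, 15 neighbours and Leiden resolution 1.0 (0.5 within a class, seed 0) were used, without the members, the 57 genes of the 6 other junction lists and mitochondrial genes. A class needed 3 markers at least 2-fold above the median cluster in at least 25% of cells.

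Summed counts were compared as CPM with exact Poisson intervals, log2 ratios with exact conditional binomial intervals and shares with Clopper-Pearson intervals (95%, SciPy 1.17.1). A gene was measured with 30 UMIs over both sides and called at 2-fold. Members with 100 UMIs are given with values, others by count, and of each other list the genes with the largest ratios are named. Genes with 0 UMIs on 1 side were set to 3 UMIs. The comparison was tested on simulated data. The erythroid comparison was added after seeing the data. Gene positions are from GENCODE M21, where all 51 identifiers were found. Some genes are not reported here by name.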

Additional observations from a re-analysis of the deposited data

Results flagged for a closer look

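Cldn11, Gjb1, Gjb6 and Gjc3 had a higher level in near-empty droplets, which belong to no comparison above, than in the cells. Droplets of 1 to 20 UMIs numbered 1465970 and held 2881242 UMIs. Cldn11, a claudin of myelin and of Sertoli cells, had 26.4 CPM in these droplets (20.8 to 33.0, 76 UMIs), 6.70 CPM in barcodes of more than 20 UMIs and under 500 genes (187 UMIs), and 0.407 CPM in barcodes that passed the filters (15 UMIs). Gjc3, a connexin gene of glia, had 9.02 CPM in near-empty droplets and 0.108 CPM in passing barcodes. Gjb1, a connexin gene of Schwann cells and liver, had 3.12 CPM in near-empty droplets and 0 UMIs in passing barcodes, which allows up to 0.0813 CPM. Gjb6 had 1.04 CPM from 3 UMIs in near-empty droplets and 0.0542 CPM from 2 UMIs in passing barcodes. Markers of glia moved the same way: Mbp had 112 CPM in near-empty droplets and 9.21 CPM in passing barcodes, and Sox10 had 8.68 CPM in near-empty droplets and 0 UMIs in passing barcodes. Their part in the levels of the 4 genes was not tested. No cluster took a glial name.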

How the results depend on the processing

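No paired analysis was possible because the data are 1 pooled matrix of 1 group, and no replicate could be left out. Requiring 100 UMIs in place of 30 left 7 members higher in epithelial than in mesenchymal cells (13 as reported), 0 higher in immune cells (1 as reported), 12 higher and 23 lower calls summed over the epithelial clusters (21 and 36) and 8 lower calls over the mesenchymal clusters (14). Requiring 10 UMIs gave 15 higher calls over the mesenchymal clusters (5). A 4-fold limit left 13 higher calls over the epithelial clusters and 2 higher and 8 lower over the mesenchymal clusters. With at least 1000 genes per barcode 0 members were higher in immune cells. Without thinning 11 members, in place of 6, had a UMI in at least 5% of epithelial cells. Of 765 recomputed single-gene values, 701 moved by less than their interval, 63 moved by more and 1 called value reversed: Gja1 in the Igf1 cluster had a log2 ratio of −0.43 at resolution 1.0, since the matching part is the Igfbp3 part, without the Adgrg6 cells. Among values within 2-fold, whose sign was not called, Cldn20 in the Atf3 cluster moved to −1.59 at that resolution. The matching part held only 15 of the 39 cells of that cluster. Depth limits the 30 members with fewer than 30 UMIs, of which nothing can be said beyond their counts, and the 74 endothelial cells, in which 3 UMIs are 6.73 CPM.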
